A study of Mus musculus with 18 samples.

Results

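The genes described here encode the ligands of the HER receptors: Egf, Tgfa, Areg, Ereg, Btc, Hbegf and Epgn of the EGF-like group, and the neuregulins Nrg1, Nrg2 and Nrg4. They were taken by name, as 10 of the 54532 gene rows of the count table, with earlier results of these data known. RNA was sequenced from 18 tumours of PB2, a mouse breast cancer cell line grown as tumours in mice. By genotype, 10 tumours were labelled EV and 8 were labelled p95HER2, and the comparison addresses what overexpression of p95HER2 does to gene expression. All 18 came from mice on the doxycycline diet DOX625, EV tumours included. The labels give no strain, age or sex of the host mice, do not spell out EV, and do not say how p95HER2 was introduced or whether the cells were 1 clone.

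HER ligands are made as membrane-anchored precursors and released by proteases such as ADAM17. A released ligand makes its receptor pair up with another HER receptor, which switches on their kinases and, through adaptor proteins, the ERK and PI3 kinase pathways. HER2 itself has no known ligand and acts as the preferred partner of the others, and p95HER2 is a truncated form of it that lacks most of the extracellular part. In the mammary gland, amphiregulin, the product of Areg, is known as the ligand through which oestrogen drives duct growth.

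The main features were these. Hbegf, Nrg2 and Tgfa rose in p95HER2 tumours, by factors of 2.33, 1.35 and 1.14. In CPM, counts scaled to a common library size, Areg averaged 4.66 ± 6.78 CPM (SD, n = 10) in EV and 13.5 ± 5.74 CPM in p95HER2 tumours (SD, n = 8), but it did not pass the test over all tumours. Without the single EV tumour in which it was high, EV 1, it passed, with a larger change than any other ligand tested. Egf and Nrg4 had lower means in p95HER2 tumours and did not pass. Btc and Nrg1 differed by less than their spread.

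Library totals ran from 35030920 to 38464541 counts in EV and from 32686558 to 34804640 in p95HER2 tumours, so depth and group cannot be told apart by design. In a fit with every library thinned to the lowest total, Hbegf, Nrg2 and Tgfa still passed (edgeR adjusted p = 0.0123, 0.0054 and 0.0255). The epithelial genes Epcam and Krt8 averaged 637.5 and 581.8 CPM in EV tumours. Erbb2, the gene behind the label, averaged 67.9 ± 4.64 CPM over EV tumours and 158 ± 37.7 CPM over p95HER2 tumours, with no overlap (log2 fold change 1.22, edgeR adjusted p = 2.889e-07). EV 1 stood apart. Its level of 4 measured keratinocyte markers, the mean of log2(CPM + 0.5), was 4.14 against 2.17 in the next EV tumour, its basal epithelial level was 5.35 against 4.42, and its skeletal muscle level was the lowest of EV tumours at 3.39. Nor is it stated that every tumour grew in a separate mouse, and the p-values then cover only the spread from tumour to tumour.

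Levels of different genes were compared per length, as CPM per kilobase of merged exons. In EV tumours Tgfa was the most abundant ligand mRNA at 10.71 ± 0.68 CPM per kb (SD, n = 10), ahead of Nrg2 at 6.71 ± 1.04. Areg followed at 3.84 ± 5.58 and Hbegf at 2.44 ± 1.41, and these neighbours did not differ beyond their spread, with Areg above Hbegf in 6 of 10 tumours. The other 6 ligands lay between 0.041 (Ereg) and 0.271 (Btc) CPM per kb. Among them Btc was above Nrg1 in 6 of 10 EV tumours, Nrg1 above Egf in 5 and Nrg4 above Epgn in 5, so these orders were not settled.

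In p95HER2 tumours Tgfa stood at 12.1 ± 0.97 CPM per kb, Areg at 11.1 ± 4.72, Nrg2 at 9.10 ± 1.11 and Hbegf at 5.69 ± 2.0 (SD, n = 8). Areg did not differ from Tgfa or Nrg2 beyond its spread: Tgfa was above Areg in 5 of 8 tumours and Areg above Nrg2 in 4 of 8. Tgfa was above Nrg2 in every p95HER2 tumour. By merged exon length, Tgfa was the highest ligand in 9 of 10 EV and 5 of 8 p95HER2 tumours, and Areg in the others. Together these 4 mRNAs made up 94.8% to 98.0% of the summed ligand level in every tumour.

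The summed level of the 10 ligands was 24.6 ± 6.85 CPM per kb in EV and 39.0 ± 5.28 in p95HER2 tumours, a ratio of 1.58. No test was made of this sum. EV 1 had 42.9, the other 9 EV tumours 18.6 to 25.7, and the p95HER2 tumours 34.6 to 49.2, so all EV tumours except EV 1 lay below every p95HER2 tumour. Without EV 1 the ratio was 1.73. The mean share of Areg in the sum was 12.7% in EV and 27.7% in p95HER2 tumours, and its median share was 9.65% and 24.7%. The mean share of Tgfa was 45.4% and 31.8%, although Tgfa itself was higher in p95HER2 tumours.

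**Figure D1:**
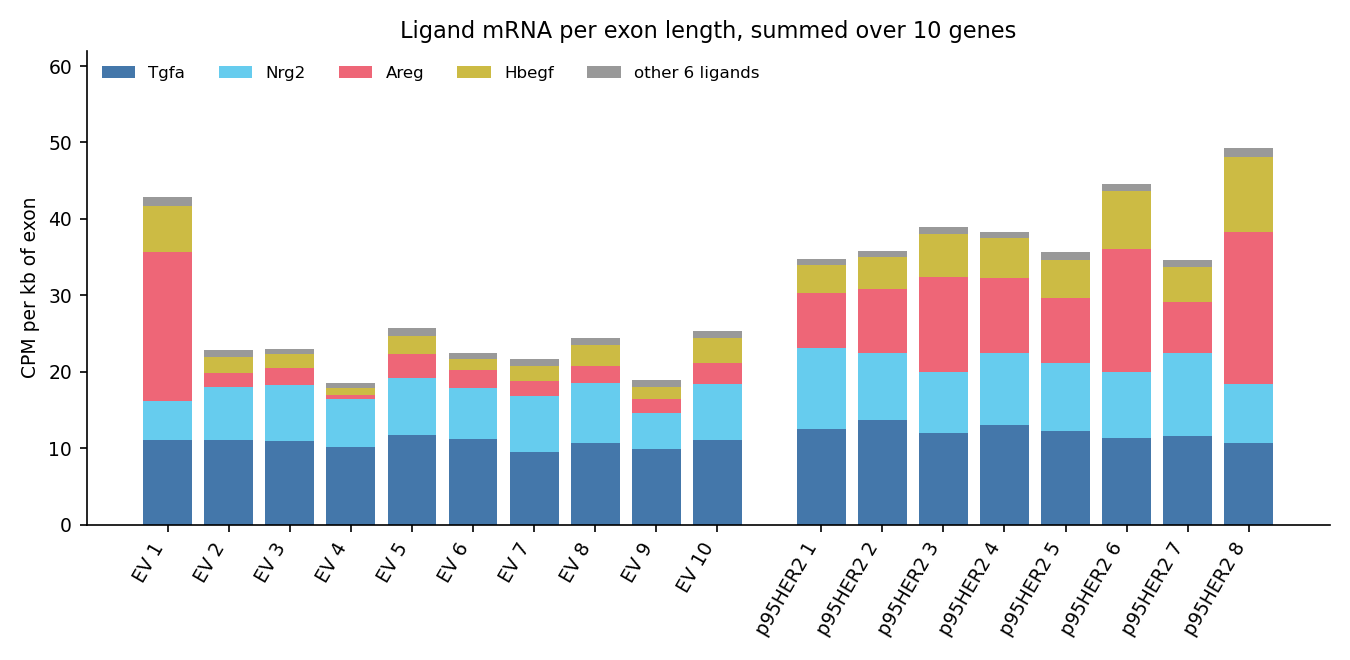
Each bar is 1 tumour, and its height is the summed ligand mRNA in CPM per kilobase of exon, divided by colour into Tgfa, Nrg2, Areg, Hbegf and the other 6 ligands. The bar of EV 1 reaches 42.9, among the p95HER2 tumours at 34.6 to 49.2, while the other EV tumours end between 18.6 and 25.7.

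Genes were tested with edgeR's quasi-likelihood F-test over all 17123 genes that passed a filter on low counts, and a gene was called at a Benjamini-Hochberg (BH) adjusted p under 0.05. Of the 10 ligands, 8 were tested and Ereg and Epgn were too low. Of the 8, 3 were called higher and none lower, where 5.73% of all tested genes were called higher and 4.45% lower. Because the ligands were chosen with earlier results of these data known, these shares do not say how rare such a count is. At an unadjusted p under 0.05 there were 4 higher and 2 lower. Both DESeq2 and limma voom with sample weights called 4 higher and 1 lower, adding Areg and Egf. Voom put the log2 fold change of Areg at 2.24, against 1.53 by edgeR over all tumours and 2.41 by edgeR without EV 1. The median log2 fold change of the 8 was 0.14, against -0.01 over all tested genes. The background moved with the rule. DESeq2 called 6.29% of genes higher and 5.77% lower, voom 7.27% and 6.02%, and edgeR without EV 1 7.04% and 6.62%. Without p95HER2 6, edgeR called 4.6% lower. With marker levels as covariates it called 0.969% higher and 0.234% lower for macrophage, 2.09% and 0.701% for adipocyte, 4.52% and 3.39% for basal epithelial, 5.7% and 4.8% for skeletal muscle, 6.87% and 7.05% for keratinocyte, and 7.52% and 6.14% for luminal epithelial markers. Against a fold of 1.5 it called 0.251% and 0.0526%. These are bulk tumours, in which fewer cells of a type and less RNA per cell cannot be told apart.

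**Figure D2:**
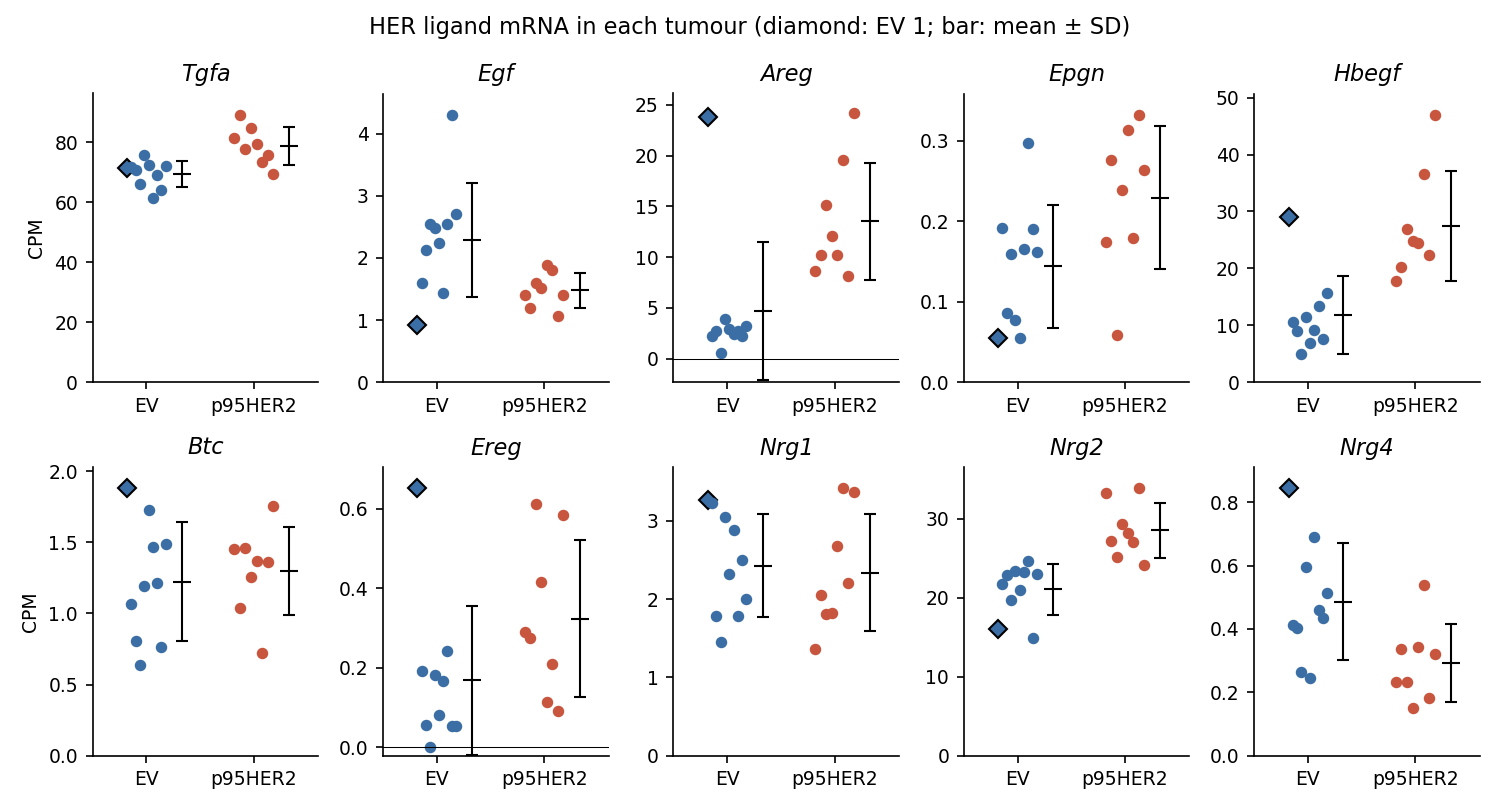
Each panel shows 1 ligand gene, with CPM on the vertical axis from its own linear scale, 1 point per tumour, and the mean ± SD beside each group of 10 EV or 8 p95HER2 tumours. The diamond is EV 1, which lies far above the other EV tumours for Areg, Hbegf and Ereg and at the bottom of the EV group for Egf.

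Tgfa, Egf, Areg and Epgn bind EGFR alone. Tgfa (transforming growth factor alpha, ENSMUSG00000029999, chromosome 6, 86195223 to 86275719, plus strand, mm10) was the steadiest of them. It had a lowest value of 61.3, a median of 71.2 and a highest of 75.8 CPM in EV tumours, and 69.5, 78.5 and 89.1 CPM in p95HER2 tumours. The ranges overlapped, but 5 of 8 p95HER2 tumours lay above every EV tumour and 7 above the EV median. Tgfa rose by 0.18 on the log2 scale (SE 0.05, edgeR adjusted p = 0.0222). The call held when each tumour was left out in turn, at its weakest without p95HER2 2 (edgeR adjusted p = 0.0498), and ended with the macrophage marker level (log2 fold change 0.10, edgeR adjusted p = 0.536) or the adipocyte level as a covariate (0.20, edgeR adjusted p = 0.122).

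Areg (ENSMUSG00000029378, chromosome 5, 91139599 to 91148432, plus strand) had a lowest value of 0.557 (EV 4), a median of 2.73 and a highest of 23.8 CPM (EV 1) in EV tumours. In p95HER2 tumours it had 8.12, 11.1 and 24.2 CPM. The next EV tumour after EV 1 had 3.88 CPM, so 9 of 10 EV tumours lay below all 8 p95HER2 tumours and EV 1 lay near their top. Over all tumours its log2 fold change was 1.53 (SE 0.53, edgeR adjusted p = 0.0753). Without EV 1 the EV mean was 2.54 ± 0.91 CPM (n = 9), a ratio of 5.33, and the log2 fold change was 2.41 (SE 0.29, edgeR adjusted p = 7.1e-05). Leaving out any other tumour gave no call.

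EV 1 was also the EV tumour with the highest luminal epithelial, basal epithelial, keratinocyte, adipocyte and neutrophil marker levels. The highest Areg values of all 18 tumours belonged to p95HER2 8, EV 1 and p95HER2 6, whose basal epithelial levels of 5.07, 5.35 and 5.4 were also the 3 highest. Their neutrophil levels of 2.33, 2.33 and 2.48 were the 3 highest as well, and no fit had that level as a covariate. With the basal epithelial level as a covariate, chosen after these values were seen, Areg passed at 1.1 on the log2 scale (edgeR adjusted p = 0.0402), and with the keratinocyte level at 2.81 (edgeR adjusted p = 3.7e-05). Among the 10 markers of basal epithelium 4 were called higher and none lower, and their levels ran from 4.01 to 5.35 in EV and from 4.38 to 5.4 in p95HER2 tumours.

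The promoter of Areg is shown because its mRNA spread widest among the abundant ligands, and that of Tgfa because it spread least. Both are from RefSeq (GRCm38.p6), from 250 bases before to 50 after the transcription start, 5′ to 3′ on the plus strand. Capitals mark matches on either strand to the cyclic AMP response element TGACGTCA and the TATA box TATAAA. The AP-1 site TGANTCA was searched as well.
Areg, chr5:91139349-91139648: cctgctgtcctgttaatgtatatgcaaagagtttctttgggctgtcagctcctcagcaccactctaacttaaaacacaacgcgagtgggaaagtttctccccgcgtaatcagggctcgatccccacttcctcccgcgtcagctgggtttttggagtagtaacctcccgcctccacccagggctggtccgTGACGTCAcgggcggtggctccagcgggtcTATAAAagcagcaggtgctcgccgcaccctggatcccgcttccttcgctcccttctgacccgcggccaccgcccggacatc
Tgfa, chr6:86194972-86195271: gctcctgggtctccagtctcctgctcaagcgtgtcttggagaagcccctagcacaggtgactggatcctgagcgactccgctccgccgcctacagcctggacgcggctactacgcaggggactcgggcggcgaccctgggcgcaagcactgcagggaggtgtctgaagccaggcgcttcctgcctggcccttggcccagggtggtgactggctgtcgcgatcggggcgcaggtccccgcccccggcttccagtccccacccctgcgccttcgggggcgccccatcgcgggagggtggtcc

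The Areg window held the cyclic AMP response element letters from position -61 and the TATA letters from position -31, while the Tgfa window held none of the 3 motifs. G and C made up 59.3% of the Areg and 70.7% of the Tgfa window. Of 32851 promoter windows of this length, 1.79% held TGACGTCA, 13.6% TATAAA and 7.81% TGANTCA. The table had a window for 6 of the 10 ligands, and among the others (Egf, Epgn, Btc and Nrg4) there was a single match, TATAAA at position -86 of Epgn. These matches describe the letters only.

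Egf (ENSMUSG00000028017, chromosome 3, 129677565 to 129755316, minus strand), the founding ligand of the family, was scarce. It had a lowest value of 0.925 (EV 1), a median of 2.37 and a highest of 4.30 CPM (EV 9) in EV tumours and 1.06, 1.46 and 1.88 CPM in p95HER2 tumours. All 8 p95HER2 tumours lay below the EV median, and EV 1, 2 and 7 lay among or below them. The log2 fold change was -0.63 (SE 0.22, edgeR adjusted p = 0.0696), and -0.72 without EV 1, where it passed (edgeR adjusted p = 0.0166). The EV tumours at the ends of the Egf range were also at the ends of the skeletal muscle marker level. EV 9 had the highest muscle level of all tumours, 9.06, and EV 1 the lowest, 3.39. All 10 muscle markers had negative log2 fold changes and none was called by edgeR, DESeq2 or voom (3 had an unadjusted p under 0.05). With the muscle level as a covariate the log2 fold change of Egf was -0.31 (edgeR adjusted p = 0.256). With the basal epithelial level it was -0.34 (edgeR adjusted p = 0.455). The adipocyte and macrophage levels gave -0.81 and -0.68 (edgeR adjusted p = 0.164 and 0.33). Egf passed with the keratinocyte and luminal epithelial levels, at -0.92 and -0.72 (edgeR adjusted p = 0.00721 and 0.0246). Antisense genes share 500 and 607 exon bases with Egf, but held only 25 and 3 counts over the EV and 13 and 2 over the p95HER2 tumours.

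Epgn (ENSMUSG00000035020, chromosome 5, 91027464 to 91035215), which encodes epigen, had 2 to 11 counts per library, 53 over the EV and 62 over the p95HER2 tumours. It did not pass the filter. Fitted without the filter, its log2 fold change was 0.66 (SE 0.38, edgeR adjusted p = 0.341), and no difference was detectable at this depth.

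Hbegf, Btc and Ereg bind EGFR and ERBB4. Hbegf, which encodes heparin-binding EGF-like growth factor (ENSMUSG00000024486, chromosome 18, 36504927 to 36515805, minus strand), had a lowest value of 4.96 (EV 4), a median of 9.86 and a highest of 29.0 CPM (EV 1) in EV tumours. In p95HER2 tumours it had 17.8, 24.6 and 47.0 CPM. All EV tumours except EV 1 lay below all p95HER2 tumours, and EV 1 was below only p95HER2 6 and 8. Hbegf rose by 1.22 on the log2 scale (SE 0.29, edgeR adjusted p = 0.0128). The EV mean was 11.8 ± 6.83 CPM, and 9.86 ± 3.36 CPM without EV 1, where the log2 fold change was 1.48 (SE 0.23, edgeR adjusted p = 0.000812).

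For Areg and Hbegf alike, the 8 p95HER2 tumours lay above every EV tumour once EV 1 was left out. That was so for 0.987% of all tested genes. EV 1 was singled out from the values of these same ligands, so this share does not say how rare their separation is. With all 10 EV tumours no ligand had separate ranges, and 0.677% of tested genes did. The Hbegf call held in all 18 fits that left out 1 tumour, with log2 fold changes from 1.07 to 1.48. It ended with the macrophage marker level as a covariate, at a log2 fold change of 1.43 (edgeR adjusted p = 0.103). With the basal epithelial level the log2 fold change was 0.79 (edgeR adjusted p = 0.0319).

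Btc, which encodes betacellulin (ENSMUSG00000082361, chromosome 5, 91357261 to 91402994, minus strand), averaged 1.22 ± 0.42 CPM over EV tumours and 1.30 ± 0.31 CPM over p95HER2 tumours. Its ranges, 0.637 to 1.88 and 0.719 to 1.75 CPM, nearly coincided. The log2 fold change was 0.09 (edgeR adjusted p = 0.836), with a 95% interval from its SE of -0.32 to 0.50. Ereg, which encodes epiregulin (ENSMUSG00000029377, chromosome 5, 91074622 to 91093646, plus strand), had 0 to 24 counts per library, 62 over the EV tumours, of which EV 1 gave 24, and 88 over the p95HER2 tumours. Its unfiltered log2 fold change was 0.93 (SE 0.50, edgeR adjusted p = 0.310).

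**Figure D3:**
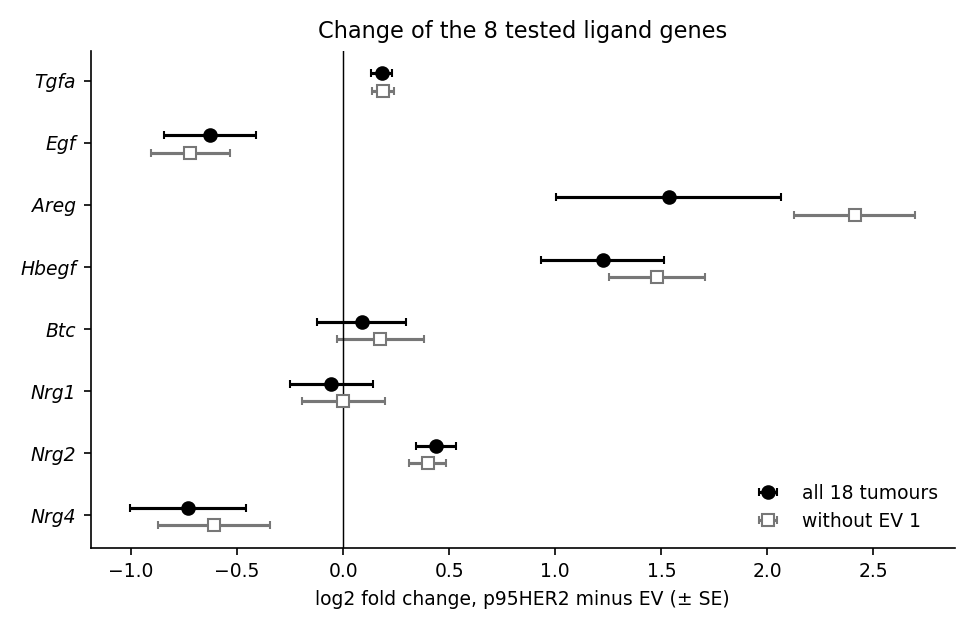
The horizontal axis is the log2 fold change, p95HER2 minus EV, with its SE, for the 8 ligand genes tested, from all 18 tumours (filled circles) and without EV 1 (open squares). Areg moves from 1.53 to 2.41 and its SE narrows from 0.53 to 0.29, Hbegf moves from 1.22 to 1.48, and Tgfa moves from 0.18 to 0.19.

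The neuregulins bind ERBB3 or ERBB4. Nrg2 (ENSMUSG00000060275, chromosome 18, 36017652 to 36197380, minus strand) was by far the most abundant of them. It had a lowest value of 14.9 (EV 9), a median of 22.3 and a highest of 24.7 CPM in EV tumours and 24.2, 27.7 and 33.9 CPM in p95HER2 tumours. Of the 8 p95HER2 tumours 7 lay above every EV tumour, and p95HER2 8 lay just below EV 8. Nrg2 rose by 0.44 on the log2 scale (SE 0.09, edgeR adjusted p = 0.00539), and the call held in all 18 fits that left out 1 tumour. It ended with the macrophage level (log2 fold change 0.34, edgeR adjusted p = 0.236) or the adipocyte level as a covariate (0.21, edgeR adjusted p = 0.327).

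Unlike Hbegf, Nrg2 was low in EV 1, at 16.03 CPM, and p95HER2 8, the p95HER2 tumour with the most Hbegf and Areg, had the least Nrg2 of the p95HER2 tumours. Nrg1, the best studied neuregulin (ENSMUSG00000062991, chromosome 8, 31814551 to 32884029, minus strand), averaged 2.43 ± 0.66 CPM over EV tumours and 2.34 ± 0.75 CPM over p95HER2 tumours. Its log2 fold change was -0.06 (edgeR adjusted p = 0.896), with a 95% interval from its SE of -0.44 to 0.33.

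Nrg4 (ENSMUSG00000032311, chromosome 9, 55220222 to 55326844, minus strand), known as a factor secreted by fat tissue, averaged 0.487 ± 0.18 CPM over EV tumours and 0.292 ± 0.12 CPM over p95HER2 tumours. The ranges overlapped, and 7 of 8 p95HER2 tumours lay below the EV median. Its log2 fold change was -0.73 (SE 0.27, edgeR adjusted p = 0.0926). It passed when p95HER2 6 was left out (-0.91, edgeR adjusted p = 0.0383). Of 9 tested adipocyte markers 7 fell, and their level ran from 1.56 to 3.50 in EV and from 0.76 to 1.90 in p95HER2 tumours. EV 1 had both the highest adipocyte level and the most Nrg4 of the EV tumours, 0.844 CPM, but EV 2, second in adipocyte level, had 0.411 CPM. With the adipocyte level as a covariate the log2 fold change of Nrg4 was -0.33 (edgeR adjusted p = 0.663), and with the macrophage level -0.28 (edgeR adjusted p = 0.776). With the basal epithelial level it passed at -1.04 (edgeR adjusted p = 0.0266). Nrg4 shares 368 exon bases with Fbxo22 on the opposite strand, which had 14170 counts summed over the EV and 10054 over the p95HER2 tumours. In CPM, Fbxo22 averaged 38.55 ± 2.59 and 37.15 ± 1.89 and was not called (log2 fold change -0.05, edgeR adjusted p = 0.490). The library kit kept strand, but no source used here states the strand setting of the counting, so Nrg4 counts are uncertain. The remaining neuregulin gene, Nrg3, which is not among the 10, had 1 count in 1 of the 18 libraries.

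Macrophage markers were mostly lower in p95HER2 tumours, as were the means of Egf and Nrg4, while Hbegf, Nrg2 and Tgfa were higher. Of 10 markers 5 fell, with Cd14 called higher, and the level ran from 5.61 to 6.73 in EV and from 5.15 to 6.13 in p95HER2 tumours. With this level as a covariate 166 genes were called higher and 40 lower over the whole table, and none of the ligands. The log2 fold changes of Hbegf and Areg were then 1.43 and 1.85, above those without the covariate, and those of Nrg2 and Tgfa were 0.34 and 0.10, below them. Among the other marker lists edgeR called 4 of 10 T cell, 2 of 4 keratinocyte, 1 of 10 fibroblast, 1 of 7 Schwann cell and 1 of 10 luminal epithelial markers lower and none higher. Of 6 neutrophil markers 1 was higher and 1 lower. None of 8 endothelial or 3 mast cell markers was called by edgeR (1 and 2 at an unadjusted p under 0.05, 1 and 0 by DESeq2, 1 and 0 by voom). The part of these cells in the ligand differences was not tested.

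Over both groups, 56 relations between pairs of tested ligands were computed on log2(CPM + 0.5), each within 1 group. Areg and Hbegf went together among the 8 p95HER2 tumours, with Pearson r = 0.94 (exact permutation p = 0.00057, BH-adjusted p = 0.0319) and Spearman rho = 0.93 (exact permutation p = 0.00223, BH-adjusted p = 0.125). Without p95HER2 6 and 8, the tumours farthest from the median, r was 0.74. Among the 10 EV tumours r was 0.89 (permutation p = 0.00179, BH-adjusted p = 0.0501) and rho 0.67 (permutation p = 0.0387, BH-adjusted p = 0.310), and without EV 1 and EV 4 r was 0.43, so the relation in EV tumours rests on those tumours.

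Areg and Nrg2 ran against each other among p95HER2 tumours, with r = -0.83 and rho = -0.88 (exact permutation p = 0.0123 and 0.00724, BH-adjusted p = 0.0984 and 0.202), and r = -0.87 without p95HER2 6 and 8. This pair did not pass the adjustment. Among EV tumours the same pair had r = -0.31 and rho = 0.25 (permutation p = 0.343 and 0.490). No other pair passed the adjustment by Pearson r, and none passed by Spearman rho.

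How far reads of the p95HER2 construct count toward mouse Erbb2 is not stated. Erbb2 ran from 122 to 231 CPM in p95HER2 and from 60.3 to 74.8 CPM in EV tumours. Among p95HER2 tumours Areg followed Erbb2 with r = 0.90 and rho = 0.88 (exact permutation p = 0.00365 and 0.00724), and Hbegf with r = 0.85 and rho = 0.76 (exact permutation p = 0.00799 and 0.0368). Over the 16 relations of ligands with Erbb2 the BH-adjusted p was 0.0583 for Areg and 0.0639 for Hbegf by Pearson r (exact permutation), and 0.116 and 0.294 by Spearman rho, so neither passed. Without p95HER2 6 and 8, r was 0.63 for Areg and 0.35 for Hbegf, so these relations rest largely on the tumours with the most Erbb2. In EV tumours r with Erbb2 was 0.34 for Areg and 0.27 for Hbegf (permutation p = 0.343 and 0.454, BH-adjusted p = 0.685 and 0.786). EV 1 had Areg and Hbegf in the range of p95HER2 tumours at an Erbb2 level of 74.8 CPM.

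**Figure D4:**
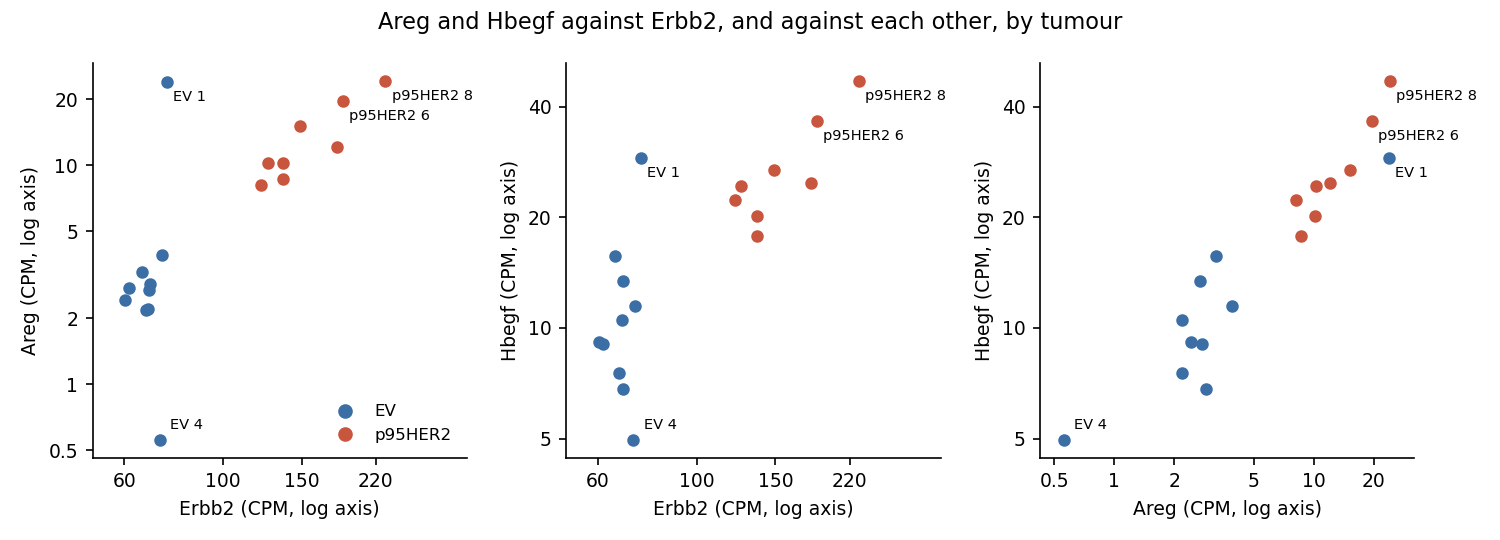
Each point is 1 tumour, on log axes in CPM: Areg against Erbb2, Hbegf against Erbb2, and Hbegf against Areg. The p95HER2 tumours climb towards p95HER2 6 and 8, while EV 1 sits at the height of the p95HER2 tumours in Areg and Hbegf but at an EV level of Erbb2 (74.8 CPM).

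Several ligand genes are neighbours in the genome. Epgn, Ereg, Areg and Btc lie together on chromosome 5 between 91027464 and 91402994. Of 27 tested genes within 1 Mb, 5 rose and none fell, with a median log2 fold change of -0.09. The neutrophil-attracting chemokine genes Cxcl15, Cxcl5 and Cxcl2 rose by 3.56, 3.10 and 2.14 on the log2 scale (edgeR adjusted p = 1.545e-06, 0.00037 and 0.000713). They were scarce, with EV means of 0.106, 0.538 and 0.383 CPM and p95HER2 means of 1.29, 4.63 and 1.69 CPM. Odaph, a gene of tooth enamel formation, rose by 2.31 (edgeR adjusted p = 0.00378), from a mean of 0.176 to 0.891 CPM. Cxcl1, named after its value was seen, rose by 1.02 (edgeR adjusted p = 0.0069). Within 0.5 Mb, 4 of 8 neighbours rose, all of them these chemokine genes. In EV 1, where Areg was near the top, Cxcl5 was at 1.06 CPM, against means of 0.538 ± 0.44 in EV and 4.63 ± 2.49 in p95HER2 tumours. Its Cxcl1 was at 7.29 CPM, against 4.25 ± 1.31 and 8.64 ± 4.42. EV 1 was thus above the EV mean and below the p95HER2 mean for both genes. Btc, at the far end of the cluster, had a log2 fold change of 0.09.

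Nrg2 and Hbegf lie within 0.5 Mb of each other on chromosome 18. Of 51 tested neighbours within 1 Mb of the pair 5 rose and none fell, 40 had positive log2 fold changes, and the median was 0.15. Many of the positive neighbours were protocadherin genes of the Pcdhb cluster, which lies outside the 0.5 Mb window. Within 0.5 Mb 20 of 30 were positive with a median of 0.06, and within 2 Mb 69 of 101 with a median of 0.09. Over all tested genes 47.7% had positive values. Those called were Sra1, the sensor of cytosolic DNA Tmem173 (STING), the protocadherins Pcdhb17 and Pcdhb18, and, outside the naming rule, Cd14, a co-receptor for bacterial lipopolysaccharide. Their log2 fold changes were 0.49 for Pcdhb18, 0.34 for Pcdhb17, 0.24 for Cd14, 0.205 for Sra1 and 0.19 for Tmem173. That of Nrg2 was 0.44, above all but Pcdhb18, and that of Hbegf was 1.22. Leaving out single tumours ended the call of Cd14 in 11 of 18 fits and that of Pcdhb17 in 2 (highest edgeR adjusted p = 0.0876 and 0.0551).

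**Figure D5:**
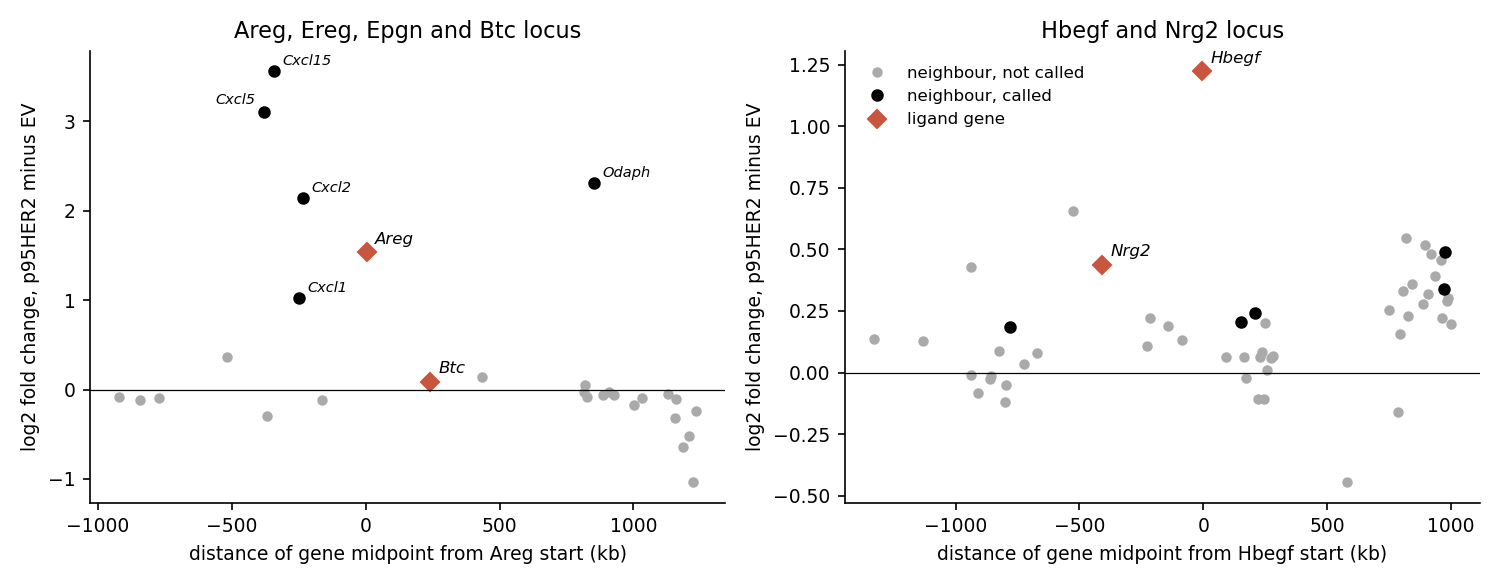
The horizontal axis is the distance of a gene's midpoint from the start of Areg (left) or Hbegf (right) in kb, and the vertical axis is the log2 fold change, p95HER2 minus EV, of each tested gene within 1 Mb of the locus. On the left, Areg (1.53) stands with 4 chemokine genes and Odaph above a row of genes near 0; on the right most neighbours lie slightly above 0 and Hbegf (1.22) stands above them.

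Near Nrg4, 4 of 22 neighbours within 1 Mb rose (1 of 10 within 0.5 Mb): Acsbg1, which activates long fatty acids (log2 fold change 1.98, edgeR adjusted p = 0.000175), Rcn2, Hykk and Tspan3 (0.17 to 0.63). Within 1 Mb, single genes fell near Egf (Gar1, 1 of 13), Tgfa (Nat8f2, 1 of 45) and Nrg1 (Fut10, 1 of 14), with log2 fold changes of -0.17, -0.58 and -0.38, and all 3 calls ended both without p95HER2 1 and without p95HER2 2 (highest edgeR adjusted p over left-out tumours 0.0595, 0.0604 and 0.0531).

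For the receptors, the per-length level was 7.77 ± 0.49 CPM per kb for Egfr and 10.8 ± 0.98 for Erbb3 in EV tumours, while Erbb4 was scarce at 0.136 ± 0.05 (SD, n = 10). Of the 4 receptor genes only Erbb2 was called. The log2 fold changes of Egfr, Erbb3 and Erbb4 were -0.10, -0.11 and 0.21 (edgeR adjusted p = 0.301, 0.364 and 0.596).

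Among 14 tested genes of ligand release, Rhbdf2 rose and none fell. Without EV 1, EV 3 or p95HER2 6, 1 was called lower. Rhbdf2 encodes iRhom2, which carries ADAM17 to the cell surface. The Rhbdf2 mRNA went from 76.1 ± 5.41 to 89.1 ± 7.01 CPM (log2 fold change 0.23, SE 0.05, edgeR adjusted p = 0.00809). The median of the list was 0.01. At an unadjusted p under 0.05 there were 3, and DESeq2 and voom called 2 each.

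Among 15 genes that restrain HER receptors, none was called by edgeR, 4 had an unadjusted p under 0.05, and DESeq2 called 2 and voom 4. Lrig2 came closest (log2 fold change 0.17, edgeR adjusted p = 0.0505). Without EV 1, 5 were called higher and 1 lower, so this count rests on that tumour.

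Of 25 tested adaptor genes next to the receptors, 3 rose and 3 fell, with a median of -0.01. Eps8, Plcg1 (phospholipase C gamma) and Nck2 rose by 0.31, 0.22 and 0.17 on the log2 scale (edgeR adjusted p = 0.00421, 0.00409 and 0.0296). Ptpn11, which encodes the phosphatase SHP2 that passes the signal on to ERK, fell from 268 ± 42.1 to 207 ± 23.0 CPM (log2 fold change -0.37, edgeR adjusted p = 0.0107). Gab1 and Shc2, named after their values were seen, fell by 0.29 and 0.68 (edgeR adjusted p = 0.0471 and 0.0405). Leaving out single tumours ended the call of Nck2 in 3 of 18 fits, of Gab1 in 12 and of Shc2 in 11 (highest edgeR adjusted p = 0.0686, 0.0898 and 0.0828). In 8 of these fits only Ptpn11 was still lower.

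The genes most like each called ligand were found among 13075 genes by the correlation of log2(CPM + 0.5) over 18 tumours after each group's mean was subtracted, as a description. For Hbegf these were Krt80, a keratin of differentiating epithelium (r = 0.939), the epithelial transcription factor Klf4 (0.935) and the protease-activated receptor gene F2rl1 (0.929). Without EV 1 the correlations were 0.898, 0.896 and 0.877. None of these 3 genes was called between the groups (edgeR adjusted p = 0.92, 0.975 and 0.488). For Areg, which was not called and whose list was added after its values were seen, Frmd6 and Lypd3 were among the closest (0.928 and 0.922, and 0.809 and 0.818 without EV 1). For Nrg2 these were Plch1, Cacng4 and Prelp (0.874, 0.842 and 0.829), of which Cacng4 and Prelp also rose, by 0.80 and 0.60 on the log2 scale (edgeR adjusted p = 0.00037 and 0.00153). For Tgfa they were Srgap3, Adgrl3 and Atg4c (0.86, 0.853 and 0.85), none of them called.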

How the data were processed

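For 18 tumours the authors deposited whole-number read counts for each Ensembl gene, not normalized. STAR 2.5, HTSeq 0.6.1 and mm10 are named per the submitters' processing notes. No source used here states the strand setting, annotation release or filters. Samples were grouped by the genotype label and numbered in accession order. Positions and exon lengths are from GENCODE M21 (mm10). Counts were filtered by filterByExpr (minimum count 10, minimum total 15), scaled by TMM and tested with edgeR 4.0.16 (robust quasi-likelihood, p95HER2 minus EV, BH over 17123 genes) in R 4.3.3. SE is the log2 fold change divided by the root of F.

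Relations within a group used all 40320 pairings of 8 tumours or 100000 resamples of 10, two-sided. Totals ran from 32686558 to 38464541 counts. On simulated counts for p95HER2 against EV over 16978 genes the test recovered 16 of 50 genes changed 1.25-fold, 29 of 49 changed 1.5-fold, 42 of 49 changed 2-fold and 50 of 50 changed 4-fold, and called 10 of 16780 unchanged genes.

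The ligands, the receptor, release, brake and adaptor lists and the marker lists were chosen with earlier results of these data known. Genes named besides the ligands were the receptors, up to 4 called genes of smallest adjusted p per list and per locus (or the 1 nearest to a call), and the 3 genes most like each called ligand whose mean log2 CPM reached 1. Alternatives were RLE scaling, library totals, all genes unfiltered, a 1 CPM filter, DESeq2 1.42.0, voom with sample weights (limma 3.58.1), glmTreat at a fold of 1.5, 5 marker levels as covariates, other lengths, windows and pseudocounts, and each tumour left out. Thinned libraries and the basal epithelial covariate were added after the data were seen. Of the 3 genes most like Areg, 1 is not reported here.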

Additional observations from a re-analysis of the deposited data

Results flagged for a closer look

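In 20 sets of values, 10 ligands in each of 2 groups, 4 had a tumour farther from the others than Dixon's 95% limit allows. For normally distributed values chance passes that limit in about 1 of 20 sets. Whether these CPM values are so distributed was not tested. EV 1 was the far tumour in 3 of the 4 sets, so these 3 come from 1 library and are not independent. Its Areg was 23.8 CPM, with the next EV tumour at 3.88 CPM. Its Hbegf was 29.0 CPM against 15.7 CPM, and its Ereg 0.653 CPM against 0.243 CPM, from 24 counts. The fourth was Egf in EV 9, at 4.30 CPM against 2.71 CPM in the next EV tumour.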

How the results depend on the processing

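Of the 8 ligands tested, Hbegf, Nrg2 and Tgfa were called under RLE scaling, library totals, both other filters, DESeq2, voom, thinned libraries and each left-out tumour. The number called higher was 0 with the macrophage covariate and 0 against a fold of 1.5, and 3 to 4 with 1 tumour left out. The number called lower was 1 in place of 0 with DESeq2, voom and the keratinocyte, luminal epithelial and basal epithelial covariates, and 0 to 1 with 1 tumour left out (Egf without EV 1, Nrg4 without p95HER2 6). Areg was called in 8 of 32 alternatives and Nrg4 in 2. With the longest transcript as length the summed ligand level moved to 31.8 CPM per kb in EV and 48.8 in p95HER2 tumours, a ratio of 1.54. Hbegf then stood above Areg in EV tumours (4.08 and 3.84) and above Nrg2 in p95HER2 tumours (9.52 and 9.34). Egf and Nrg1 stood above Btc in EV tumours (0.481, 0.449 and 0.304). In p95HER2 tumours Tgfa averaged 17.4 and Areg 11.1, so how often Areg was the highest ligand depends on the length used. The sign turned for Btc with the muscle covariate (-0.0071) and for Nrg1 with the adipocyte (0.32), keratinocyte (0.078), luminal epithelial (0.064) and macrophage (0.44) covariates, and with 1 tumour left out (-0.1524 to 0.0281, above 0 without EV 1 at 0.0007 and without p95HER2 1), and neither was called; the cause was not tested. With 2 Mb windows the called neighbours were 11 in place of 5 at Nrg2 and Hbegf and 4 in place of 1 at both Egf and Tgfa (1 higher and 3 lower at each). With 0.5 Mb they were 3 at Nrg2 and Hbegf, 1 in place of 4 at Nrg4 and 0 in place of 1 at Nrg1. With 1 tumour left out, the adaptors called lower were 1 in 8 fits. No paired analysis was possible because the labels give the groups no shared replicate numbers. Ereg and Epgn are limited by depth.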

Other observations

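Genes most like the ligands that were not called, listed after their values were seen, differed from ligand to ligand. Over 18 tumours with group means subtracted, Egf went with Coq10a, Acacb and Aldh1a1 (r = 0.929, 0.922 and 0.891). Btc went with Jcad and the clock gene Per2 (0.816 and 0.812). Nrg1 went with Plekho2 and Csf2rb, a cytokine receptor subunit of myeloid cells (0.848 and 0.824). Acacb was called lower in p95HER2 tumours (log2 fold change -0.84, edgeR BH-adjusted p = 0.045).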
